A study of Mus musculus with 16 samples.

Results

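The 10 heat shock chaperone genes described here are Hspa1a, Hspa1b, Hsp90aa1, Hsph1, Dnajb1 and Hspb1, taken as stress-inducible, and Hspa8, Hsp90ab1, Hspd1 and Hspe1, taken as constitutive. They were chosen by name, 10 of the 25719 genes in the deposited table, and all 10 were found. No measured value or threshold enters the rule, but the names were proposed with earlier results of these data known, and which result prompted them is not recorded. The adjusted p-values below therefore set each difference against the spread between mice and give no independent support for the choice of genes. All 10 passed the filter on low values in every comparison.

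Liver RNA was sequenced from 16 male mice, 1 library per mouse, to compare mice with and without NKG2D, an activating receptor of NK cells and T cells that is encoded by Klrk1, on a control and on a steatohepatitis diet. WT mice of the strain C57BL6J received a normal chow diet (NCD, n = 4) or SSD, a diet enriched in animal fat, fructose and cholesterol (n = 5), and Klrk1-/- mice, whose strain the labels give as NKG2D, received NCD (n = 4) or SSD (n = 3). The mice were 8 to 12 weeks old at the start and SSD was fed for 3 weeks. Neither the labels nor the methods say that WT and Klrk1-/- mice were littermates or were killed at the same hour, so genotype cannot be told apart from colony, cage or hour of sampling. The tissue is whole liver, in which a change in the share of a cell type and a change in RNA per cell cannot be told apart.

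Heat shock proteins bind unfolded or partly folded proteins and help them to fold, to avoid aggregation or to be degraded. Unfolded protein in the cytosol releases the transcription factor HSF1 from chaperones, and HSF1 trimers then bind heat shock elements, arrays of inverted GAA units in promoters. The inducible Hsp70 genes Hspa1a and Hspa1b are the classical targets, whereas Hspa8 and Hsp90ab1 supply most Hsp70 and Hsp90 of unstressed cells. In the liver these chaperones also hold nuclear receptors, among them the glucocorticoid receptor, in a form that can bind ligand.

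To look for heat shock elements near the starts of the members, promoters of 300 bases were taken from RefSeq (table on GRCm38.p6). They span 250 bases before and 50 from the start site on, and were placed on GRCm39 by exact match. 7 of the 10 genes had an entry, and Hspa8, Hsp90aa1 and Hsp90ab1 had none. Heat shock elements were searched as GAANNTTCNNGAA or TTCNNGAANNTTC (3 units) and as GAANNTTC or TTCNNGAA (2 units) on both strands, where each 3-unit element also contains 2-unit elements. The stretch just before the start of both inducible Hsp70 genes is shown because these genes had the largest differences between genotypes, with the 2-unit element in capitals. That of Hspa1a lies at chr17:35191133-35191282 (minus strand) and that of Hspa1b at chr17:35178215-35178364 (minus strand).
Hspa1a: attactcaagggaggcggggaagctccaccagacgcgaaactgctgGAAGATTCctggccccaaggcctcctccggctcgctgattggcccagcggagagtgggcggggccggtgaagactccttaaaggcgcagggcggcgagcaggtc
Hspa1b: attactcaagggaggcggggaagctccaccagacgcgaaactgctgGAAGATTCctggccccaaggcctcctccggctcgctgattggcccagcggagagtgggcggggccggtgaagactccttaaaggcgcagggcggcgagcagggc
The 150 bases printed differ at 1 position between both genes, and their whole 300-base promoters at 4 positions. Hspb1 is shown because it alone passed as higher on SSD in both genotypes. Its stretch, chr5:135916623-135916759 (plus strand), holds 2 separate 2-unit elements.
Hspb1: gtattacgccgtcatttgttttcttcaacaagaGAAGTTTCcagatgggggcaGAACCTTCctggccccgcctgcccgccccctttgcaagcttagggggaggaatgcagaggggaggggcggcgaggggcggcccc
Hspd1 and Hspe1 are transcribed away from each other from a shared region, which holds the following run of 18 bases at chr1:55127218-55127235, read on the plus strand toward Hspe1, with overlapping 3-unit elements in capitals throughout. Hsph1 carries its 3-unit element at chr5:149559753-149559765 (minus strand), 36 to 48 bases after the first of its 2 RefSeq starts.
Hspd1 and Hspe1: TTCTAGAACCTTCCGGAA
Hsph1: TTCTGGAAAGTTC
The 2-unit element of Hspa1a and of Hspa1b lies 104 to 97 bases before the start, those of Hspb1 117 to 110 and 97 to 90 bases before it, and the run of Hspe1 89 to 72 bases before it. A 3-unit element stood in 0.603% of 32851 RefSeq promoters of this length and in 4 of the 10 promoters listed for the 7 genes with an entry (1 of 2 of Hspd1, that of Hspe1 and both of Hsph1). A 2-unit element stood in 15.1% of all and in 7 of these 10, in every gene but Dnajb1. The 3-unit elements of Hspd1 and of Hspe1 are the same stretch read from either strand. Both windows of Hsph1 hold the same element, so there are fewer separate stretches than promoters counted. These matches describe letters in the window only.

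Between 19892025 and 28936707 reads per library fell on genes, so that the counts of all members but Hspa1a rested on at least 148 reads in every mouse, and those of Hspa1a on 9 to 126. Klrk1 itself had a normalized count of 20.1 to 28.7 in NCD-fed and 32.9 to 71.1 in SSD-fed WT mice, against 1.23 to 8.71 and 0.966 to 4.29 in Klrk1-/- mice, so every library fitted the genotype on its label, while the gene does not check the diet. Of 9 lists of cell type markers, 1 neutrophil marker alone was at 0 in all mice. The summed normalized count of the B cell list was 1934 to 2300 in NCD-fed Klrk1-/- mice and 564 to 1532 in NCD-fed WT mice, against 405 to 435 and 302 to 534 on SSD. That of the macrophage list was 5568 to 6182 in NCD-fed and 7683 to 18517 in SSD-fed WT mice, against 4776 to 5798 and 5744 to 7204 in Klrk1-/- mice. With SSD in WT mice 17.3% of all genes were higher. So were 4 of 8 macrophage, 6 of 7 sinusoidal endothelial and 3 of 7 stellate cell and fibroblast markers. In Klrk1-/- mice 2, 1 and 4 of them were higher, where 13.4% of all genes were. Of 8 hepatocyte markers 4 were lower with SSD in WT and 6 in Klrk1-/- mice, where 17.6% and 16% of all genes were. The 8 hepatocyte markers were detected in all mice, with sums of 2316780 to 3019990 on NCD and 1700590 to 2229730 on SSD over both genotypes. The share of reads on mitochondrial genes was 11.9 to 16.8% in NCD-fed Klrk1-/- mice, 7.77 to 11.6% in NCD-fed WT mice, and 6.90 to 9.06% on SSD. The part of these shifts in the results below was not tested. SSD-fed WT replicate 1 stood apart: its counts differed from those of the other 4 mice of its group by a chi-square of 73.2 to 100.8 per gene, where the other 6 pairs of that group gave 18.8 to 36.1. Without this library the same 5 members passed with SSD in WT mice, the interaction of Hspa1b was 1.19 (limma adjusted p = 0.0355), and on SSD the 4 members that differed between genotypes still passed and Hsph1 did as well. NCD-fed Klrk1-/- replicate 3 also stood apart, at 36.5 to 43.0 per gene from its group, where the other pairs of that group gave 14.2 to 17.4. It held the highest mitochondrial share (16.8%).

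Hspa8 and Hsp90ab1, the constitutive cytosolic chaperones, were the most abundant members. In normalized counts per kb of the canonical transcript, Hspa8 stood at 17424 ± 1761 (SD, n = 4) in NCD-fed WT mice, followed by Hsp90ab1 at 10218 ± 1790 and by the mitochondrial Hspe1 at 3095 ± 633 and Hspd1 at 2286 ± 280. Inducible genes followed, with Hsp90aa1 at 1016 ± 118, Hspb1 at 846 ± 196, Hsph1 at 456 ± 85.4, Hspa1b at 393 ± 91.1, Dnajb1 at 296 ± 8.29 and Hspa1a at 23.1 ± 5.19. Of the 9 pairs of neighbours in this order, 3 overlapped between mice (Hspe1 with Hspd1, Hsp90aa1 with Hspb1 and Hsph1 with Hspa1b). In SSD-fed Klrk1-/- mice Hsp90ab1 (6803 ± 221, n = 3) stood above Hspa8 (5825 ± 1908), with overlapping values, and Hspa1a remained last in all 4 groups. The order rests on the length used: per kb of all annotated exons merged, Hsp90ab1 (5114) stood above Hspa8 (4806), Hspd1 (1485) above Hspe1 (1345), and Hspa1b (393) and Dnajb1 (277) above Hsph1 (253) in NCD-fed WT mice. The order may also rest on how reads matching several places were counted, which the sources used here do not give. Of the 100-base windows of the Hspa8 transcript, 63.8% occur exactly elsewhere in the genome, against 0% of those of Hsp90ab1.

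**Figure D1:**
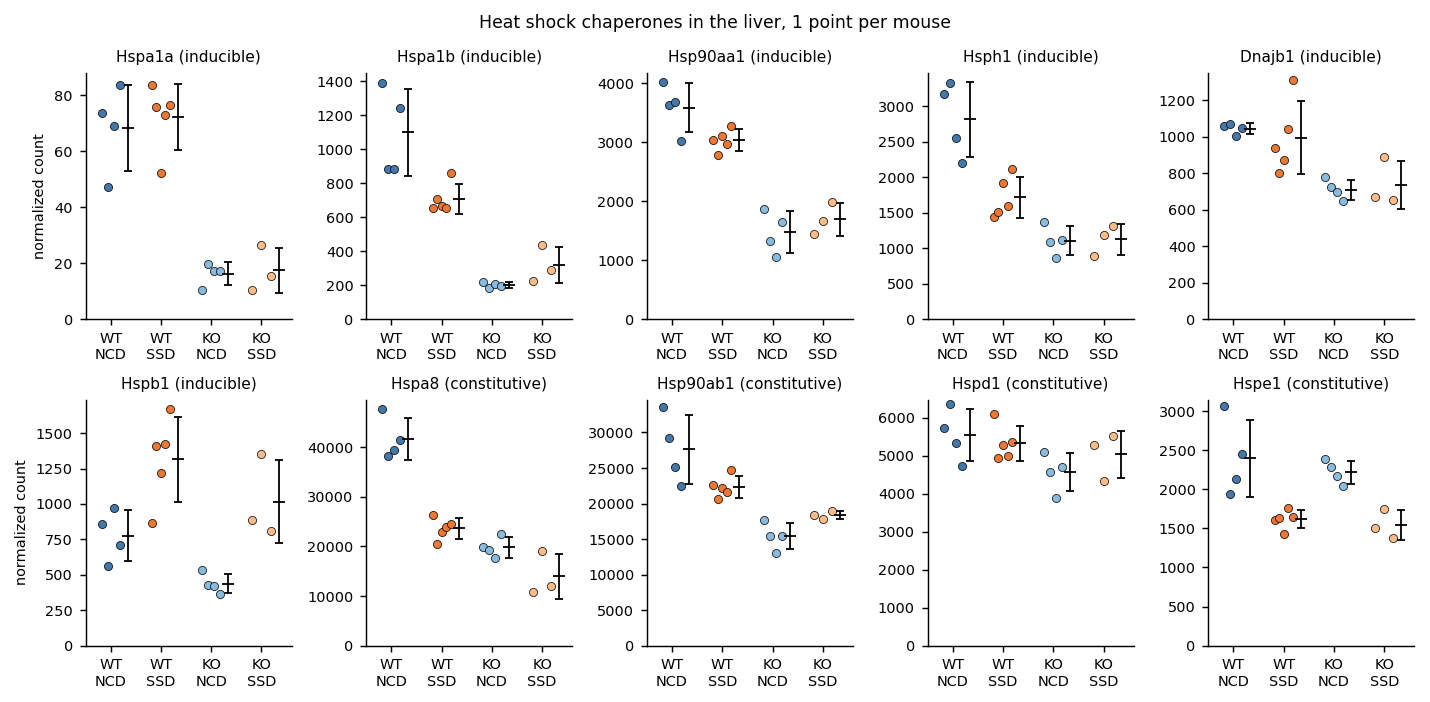
Normalized counts of the 10 chaperone genes, 1 panel per gene and 1 point per mouse, with the group mean and SD as a bar beside the points (y axis from 0, KO for Klrk1-/-). Hspa1a, Hspa1b, Hsp90aa1, Hsph1, Hspa8 and Hsp90ab1 separate the genotypes on both diets, Dnajb1 and Hspb1 on NCD, whereas Hspd1 and Hspe1 overlap between genotypes.

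Hspa1a and Hspa1b encode nearly identical inducible Hsp70 proteins from neighbouring single-exon genes at chr17:35188166-35191132 and chr17:35175412-35178214 (GRCm39, minus strand). The normalized counts of Hspa1b were 885, 885, 1245 and 1387 in NCD-fed WT mice and 184, 197, 205 and 221 in NCD-fed Klrk1-/- mice. On SSD they were 653, 658, 667, 707 and 863 in WT mice and 227, 292 and 437 in Klrk1-/- mice. Every Klrk1-/- mouse thus lay below every WT mouse, on either diet, and the mean was lower on SSD in WT and higher on SSD in Klrk1-/- mice. Means were 1100.4 ± 255 on NCD and 710 ± 88.4 on SSD in WT mice, a 1.55-fold fall with a log2 difference of −0.61 ± 0.15 (SE, limma adjusted p = 0.00749) that was −0.27 and did not pass with every library brought to the same total (adjusted p = 0.104). Klrk1-/- means were 202 ± 15.3 on NCD and 319 ± 107 on SSD, a 1.58-fold rise with a log2 difference of 0.61 ± 0.18 (limma adjusted p = 0.0262). The difference between genotypes was 5.46-fold on NCD (log2 −2.42 ± 0.15, limma adjusted p = 1.68e-06) and 2.23-fold on SSD (log2 −1.20 ± 0.18, limma adjusted p = 0.0121). This narrowing was the single interaction of diet and genotype that passed among the members, with a log2 difference of 1.22 ± 0.25 (limma adjusted p = 0.0277), and it was lost without any of 5 single mice from all 4 groups (adjusted p between 0.0530 and 0.0698). The rise in Klrk1-/- mice leaned on 1 animal: without the SSD-fed mouse at 437 it was 0.35 on the log2 scale with an adjusted p of 0.0846, and leaving out any of 3 other Klrk1-/- mice also ended the call (adjusted p between 0.0555 and 0.0636).

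Hspa1a was far weaker and changed with genotype alone. Normalized counts were 47.3, 69.1, 73.6 and 83.9 in NCD-fed WT mice, 52.3, 72.8, 76.0, 76.7 and 83.7 in SSD-fed WT mice, 10.3, 17.2, 17.4 and 19.9 in NCD-fed Klrk1-/- mice and 10.6, 15.4 and 26.5 in SSD-fed Klrk1-/- mice. No Klrk1-/- mouse reached a WT mouse. The gene was 4.22-fold lower in Klrk1-/- mice on NCD (log2 −2.02 ± 0.26, limma adjusted p = 0.000733) and 4.13-fold lower on SSD (log2 −2.06 ± 0.28, limma adjusted p = 0.00752), while the diet difference was 0.09 ± 0.20 in WT and 0.05 ± 0.36 in Klrk1-/- mice and did not pass. Both genes are hard to count apart: 48.6% of the 100-base windows of the Hspa1a transcript and 49.9% of those of Hspa1b occur exactly elsewhere in the genome, nearly all of them in the other copy. Hspa1a amounted to 6.30 ± 1.21% of Hspa1b in NCD-fed WT, 10.3 ± 1.93% in SSD-fed WT, 8.18 ± 2.55% in NCD-fed Klrk1-/- and 5.34 ± 0.695% in SSD-fed Klrk1-/- mice, and how the counting shared reads between both copies is not given in the sources used here.

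Hspa8 (chr9:40712280-40721383, plus strand) encodes the constitutive Hsp70, Hsc70, and had the largest fall of the 10 members with SSD in WT mice. Its normalized counts were 38184, 39475, 41496 and 47699 in NCD-fed WT mice and 20506, 22856, 23909, 24571 and 26367 in SSD-fed WT mice. In Klrk1-/- mice they were 17579, 19317, 19892 and 22554 on NCD and 10733, 11929 and 19174 on SSD. The NCD-fed WT mice stood clear of all others, and NCD-fed Klrk1-/- mice overlapped with SSD-fed WT mice. The gene was 2.10-fold lower in Klrk1-/- mice on NCD (log2 −1.07 ± 0.11, limma adjusted p = 0.000159) and 1.76-fold lower on SSD than on NCD in WT mice (log2 −0.82 ± 0.12, limma adjusted p = 0.000289). With quantile normalization the latter was −0.32 and did not pass (limma adjusted p = 0.0635). It was also lower in Klrk1-/- mice on SSD (log2 −0.80 ± 0.18, limma adjusted p = 0.0412) and on SSD within Klrk1-/- mice (log2 −0.55 ± 0.17, limma adjusted p = 0.0300). These last 2 calls were weak. The one on SSD was lost without any of 4 of the 5 WT mice (adjusted p between 0.0537 and 0.0794) or without either of the 2 low Klrk1-/- mice (adjusted p of 0.144 and 0.188), and the one in Klrk1-/- mice without any of 5 mice (adjusted p between 0.0540 and 0.149).

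The share of inducible over constitutive Hsp70 was lowest in NCD-fed Klrk1-/- mice. Within each mouse, Hspa1a and Hspa1b together amounted to 2.42, 2.44, 3.06 and 3.202% of Hspa8 in NCD-fed WT mice and to 0.949, 1.06, 1.16 and 1.27% in NCD-fed Klrk1-/- mice. On SSD the values were 2.81, 3.04, 3.15, 3.82 and 3.82% in WT mice and 2.21, 2.42 and 2.58% in Klrk1-/- mice. This ratio does not depend on how libraries were scaled. It did not overlap between genotypes on either diet, with a mean log2 difference of −1.32 ± 0.14 (SE) on NCD and −0.46 ± 0.11 on SSD, nor between diets in Klrk1-/- mice, where it was 2.18-fold higher on SSD. In WT mice the diets overlapped, with a log2 difference of 0.26 ± 0.14 (adjusted exact permutation p = 0.190). By exact two-sided permutation tests over mice, adjusted over the 8 ratio tests, none passed 0.05: the p was 0.0714 for both genotype comparisons and 0.0914 for the diet in Klrk1-/- mice. Each of these tests stood at the smallest unadjusted p that its groups allow, 0.0286 between genotypes on NCD, 0.0357 on SSD and 0.0571 for the diet in Klrk1-/- mice. Group sizes and the number of tests thus limit the adjusted values, which cannot tell how far apart the groups stood.

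**Figure D2:**
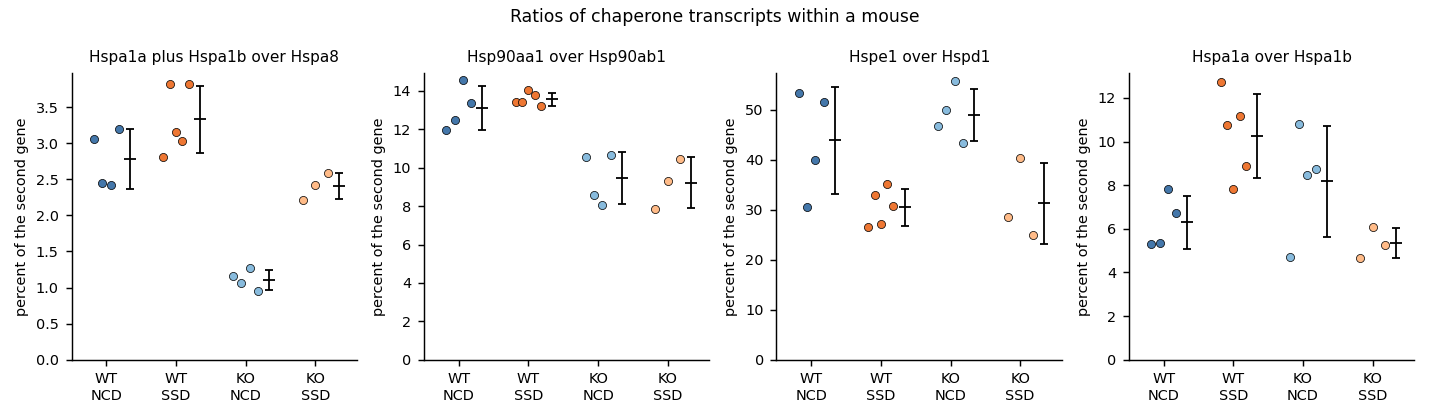
Ratios of normalized counts within a mouse as percent of the second gene named, 1 point per mouse, with the group mean and SD as a bar (y axis from 0, KO for Klrk1-/-). NCD-fed Klrk1-/- mice hold 0.949 to 1.27% inducible over constitutive Hsp70, below all other mice, and Hsp90aa1 over Hsp90ab1 is lower in Klrk1-/- mice on both diets.

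The inducible Hsp90 isoform, Hsp90aa1 (chr12:110657039-110669162, minus strand), was lower without NKG2D on both diets. Its normalized counts were 3014, 3635, 3676 and 4018 in NCD-fed WT mice and 1055, 1325, 1651 and 1861 in NCD-fed Klrk1-/- mice. On SSD they were 2775, 2973, 3040, 3112 and 3267 in WT mice and 1439, 1658 and 1990 in Klrk1-/- mice. No value of one genotype fell into the range of the other. The gene was 2.43-fold lower in Klrk1-/- mice on NCD (log2 −1.31 ± 0.15, limma adjusted p = 0.000455) and 1.79-fold lower on SSD (log2 −0.85 ± 0.11, limma adjusted p = 0.00497), and the diet difference passed in neither genotype (log2 −0.24 ± 0.09 in WT and 0.22 ± 0.17 in Klrk1-/- mice). The constitutive isoform Hsp90ab1 (chr17:45878701-45884197, minus strand) ranged from 22509 to 33609 in NCD-fed WT, 13107 to 17655 in NCD-fed Klrk1-/-, 20708 to 24762 in SSD-fed WT and 17798 to 18991 in SSD-fed Klrk1-/- mice. It was 1.79-fold lower in Klrk1-/- mice on NCD (log2 −0.83 ± 0.13, limma adjusted p = 0.00256), whereas the difference on SSD, −0.28 ± 0.10 on the log2 scale with no overlap between mice, did not pass (limma adjusted p = 0.128). Hsp90aa1 amounted to 13.1 ± 1.16% of Hsp90ab1 in NCD-fed and 13.6 ± 0.344% in SSD-fed WT mice, against 9.46 ± 1.35% and 9.21 ± 1.33% in Klrk1-/- mice. The ratio did not overlap between genotypes on either diet (adjusted exact permutation p = 0.0714 for each, both at the smallest unadjusted p that their groups allow). The diet moved the ratio by 0.06 ± 0.06 on the log2 scale in WT and by −0.04 ± 0.16 in Klrk1-/- mice. Of the 100-base windows of the Hsp90aa1 transcript, 56.1% occur exactly elsewhere in the genome. So do 63.8% of those of Hspa8, 61.6% of Hspb1, 34.2% of Hspd1 and 20.4% of Hspe1. Reads of these genes may have been lost to or gained from copies, whereas Hsp90ab1, Hsph1 and Dnajb1 have no such window.

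Hsph1 (chr5:149537752-149559841, minus strand) encodes Hsp110, which exchanges nucleotide on Hsp70, and Dnajb1 (chr8:84334822-84339282, plus strand) encodes an Hsp40 that hands clients to Hsp70. The normalized counts of Hsph1 were 2205, 2551, 3171 and 3332 in NCD-fed WT mice, 1447, 1506, 1603, 1918 and 2118 in SSD-fed WT mice, 869, 1090.0, 1111 and 1369 in NCD-fed Klrk1-/- mice and 889, 1191 and 1312 in SSD-fed Klrk1-/- mice. The 3 levels, NCD-fed WT, SSD-fed WT and Klrk1-/- on either diet, did not overlap. Hsph1 was 2.54-fold lower in Klrk1-/- mice on NCD (log2 −1.34 ± 0.15, limma adjusted p = 0.000292) and 1.64-fold lower on SSD in WT mice (log2 −0.71 ± 0.14, limma adjusted p = 0.00326), and the difference between genotypes on SSD was −0.61 ± 0.16 on the log2 scale with no overlap between mice and missed the threshold (limma adjusted p = 0.0669). It passed under 5 of 22 alternatives, among them DESeq2 (adjusted p = 0.00984), the same total in every library (0.0315) and leaving out SSD-fed WT replicate 1 (0.0288). Over all alternatives the adjusted p (limma, edgeR or DESeq2) reached up to 0.239. Dnajb1 had a narrow range of 1002 to 1069 in NCD-fed WT mice and 646 to 778 in NCD-fed Klrk1-/- mice. It was 1.47-fold lower in the latter (log2 −0.56 ± 0.09, limma adjusted p = 0.00227), while its ranges on SSD, 803 to 1313 in WT and 653 to 887 in Klrk1-/- mice, overlapped (log2 −0.43 ± 0.16, limma adjusted p = 0.160).

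Hspb1 (chr5:135916773-135918417, plus strand), which encodes the small heat shock protein Hsp27, was the member that rose with SSD in both genotypes. Its normalized counts were 560, 710, 856 and 974 in NCD-fed WT mice and 865, 1217, 1406, 1422 and 1672 in SSD-fed WT mice. They were 368, 423, 428 and 534 in NCD-fed and 807, 888 and 1350 in SSD-fed Klrk1-/- mice. 1 SSD-fed WT mouse lay within the NCD range, and in Klrk1-/- mice the diets did not overlap. The rise was 1.70-fold in WT mice (log2 0.76 ± 0.19, limma adjusted p = 0.01001) and 2.32-fold in Klrk1-/- mice (log2 1.19 ± 0.17, limma adjusted p = 0.000386), and the difference between both rises did not pass (log2 0.42 ± 0.29, limma adjusted p = 0.467). On NCD it was 1.77-fold lower in Klrk1-/- mice (log2 −0.80 ± 0.16, limma adjusted p = 0.00878) and on SSD the genotypes overlapped (log2 −0.38 ± 0.22, limma adjusted p = 0.328).

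The mitochondrial chaperonin Hsp60, encoded by Hspd1 (chr1:55116994-55127402, minus strand), and its lid Hsp10, encoded by Hspe1 (chr1:55127291-55130466, plus strand), showed no genotype difference that passed. Hspd1 ranged from 4739 to 6353 in NCD-fed WT, 3888 to 5094 in NCD-fed Klrk1-/-, 4931 to 6084 in SSD-fed WT and 4322 to 5506 in SSD-fed Klrk1-/- mice. All groups overlapped, and its largest log2 difference was −0.28 ± 0.11 between genotypes on NCD (limma adjusted p = 0.106). Hspe1 ranged from 1944 to 3062 in NCD-fed WT and 2044 to 2382 in NCD-fed Klrk1-/- mice, and from 1434 to 1754 and 1373 to 1748 on SSD. It fell with SSD in WT (log2 −0.55 ± 0.12, limma adjusted p = 0.00508) and in Klrk1-/- mice (log2 −0.53 ± 0.10, limma adjusted p = 0.00177). With every library brought to the same total neither passed (log2 −0.20 and −0.27, limma adjusted p = 0.131 and 0.0519). Hspe1 amounted to 43.9 ± 10.7% and 49.0 ± 5.23% of Hspd1 on NCD and to 30.5 ± 3.72% and 31.3 ± 8.12% on SSD, in WT and Klrk1-/- mice. The 2 genes overlap at their starts, and the sources used here do not say whether the counting used the strand, so reads of that overlap cannot be told apart.

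Between genotypes on NCD, 8 of the 10 chaperones were lower in Klrk1-/- mice, 6 of 6 inducible and 2 of 4 constitutive genes, and none was higher. In this comparison 6.66% of 12845 genes tested were lower and 6.41% higher. The groups did not overlap for the same 8 genes, against 19.3% of all genes. The median log2 difference was −0.95 over the 10 members, −1.32 over the inducible and −0.56 over the constitutive genes, beside 0.0018 over all genes. The constitutive median includes the mitochondrial Hspd1 (−0.28) and Hspe1 (−0.09), which did not pass. The cytosolic constitutive Hspa8 (−1.07) and Hsp90ab1 (−0.83) fell below the inducible Dnajb1 (−0.56) and Hspb1 (−0.80), but not below the other inducible genes. The difference between the sets was not tested. Each of the 8 calls held with every mouse left out in turn, and the exact permutation p of each was 0.0286, the smallest that 4 against 4 mice can give. The higher mitochondrial share of reads and B cell sum of NCD-fed Klrk1-/- mice, given above, moved with these 8 genes. Of 8 hepatocyte, 8 macrophage and 5 bile duct markers, 2, 1 and 1 were lower (median log2 −0.15, −0.14 and −0.83). Of 7 sinusoidal endothelial and 6 B cell markers, 1 and 2 were higher (median log2 0.34 and 0.47). The part of these shifts in the result was not tested.

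On SSD, Hspa1a, Hspa1b, Hsp90aa1 and Hspa8 were lower in Klrk1-/- mice, 3 of 6 inducible and 1 of 4 constitutive genes, where 1.68% of 13116 genes were lower and 1.22% higher. All 10 log2 differences were negative, with a median of −0.52 beside −0.0010 over all genes. For 6 members the genotypes did not overlap, against 17.9% of all genes. The call of Hspa1b was lost without either of the 2 lower SSD-fed Klrk1-/- mice (adjusted p of 0.0605 and 0.0682). Of 8 macrophage markers 2 were lower in Klrk1-/- mice on SSD, with all 8 log2 differences negative (median −0.82). No marker of the other cell type lists passed. The part of the macrophage shift in the result on SSD was not tested.

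With SSD in WT mice, Hspa8, Hsph1, Hspa1b and Hspe1 fell and Hspb1 rose, where 17.6% of 13091 genes fell and 17.3% rose. Groups did not overlap for 4 members, against 29% of all genes, and the median log2 difference was −0.26 beside −0.0015. In Klrk1-/- mice Hspb1 and Hspa1b rose and Hspa8 and Hspe1 fell, where 13.4% of 12904 genes rose and 16% fell. Groups did not overlap for 4 members, against 37.6% of all genes, and the median log2 difference was 0.09. Scaling matters here: with every library brought to the same total, the median of all genes moved by 0.34 in WT and 0.25 in Klrk1-/- mice on the log2 scale. Of all genes, 6315 then rose and 720 fell in WT mice, against 2265 and 2303 as deposited, and 4828 rose and 806 fell in Klrk1-/- mice, against 1723 and 2067. Among the members the falls of Hspa1b (−0.27) and Hspe1 (−0.20) in WT mice and of Hspa8 (−0.29) and Hspe1 (−0.27) in Klrk1-/- mice no longer passed, and Hsp90ab1, Hspd1 and Hsp90aa1 passed as rises in Klrk1-/- mice, as did Hspd1 in WT mice (0.29). The interaction passed for Hspa1b alone, where 0.321% of 13068 genes passed as higher, and was positive for 9 of 10 members with a median of 0.35 beside 0.00041.

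**Figure D3:**
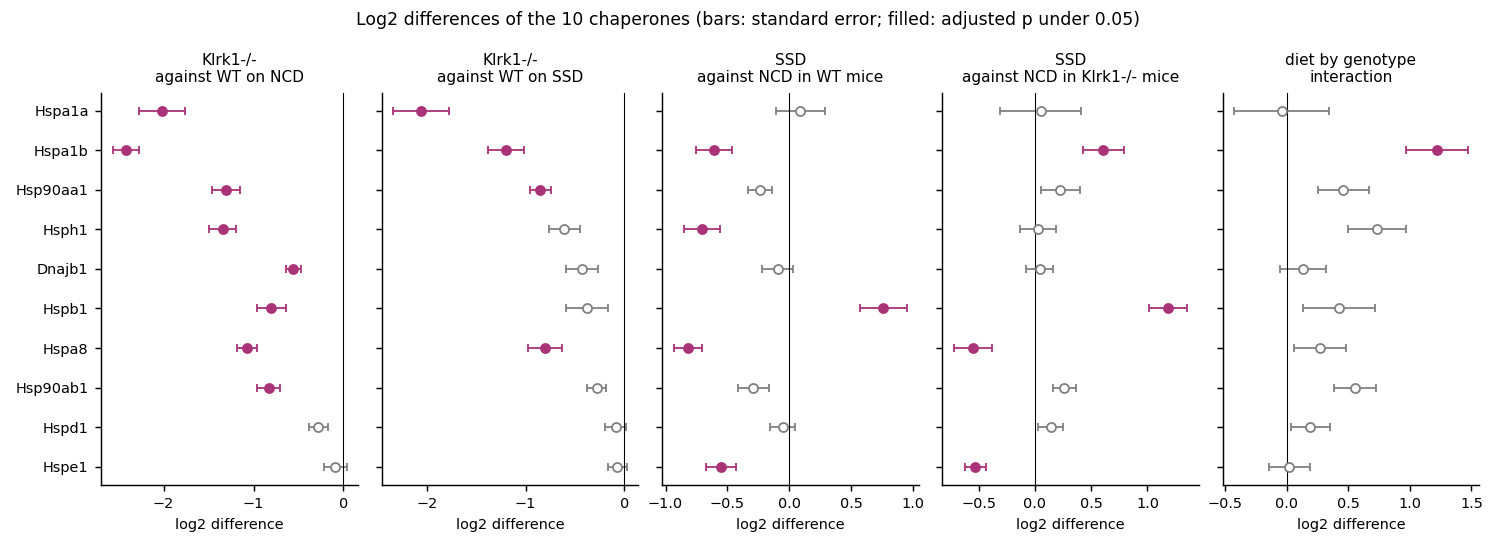
Log2 differences with their standard error for the 10 chaperones (rows) in 5 comparisons (panels), on log2(normalized count + 1), filled where the limma adjusted p was under 0.05. On NCD 8 genes lie left of 0 and filled, on SSD 4, and Hspb1 is the gene filled on the right of 0 in both diet comparisons together with Hspa1b in Klrk1-/- mice.

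Related genes were counted in lists, to be read against the shares of all genes given above for each comparison, and differences between lists were not tested. Of 17 other targets of the heat shock response tested, 11 were lower in NCD-fed Klrk1-/- mice, 6 did not pass and none was higher, where 6.66% of all genes were lower and 6.41% higher, with a median log2 difference of −0.43. Hspa4l, an Hsp110 relative, was lower by −1.04 ± 0.13 on the log2 scale, Bag3, a partner of Hsp70 in selective autophagy, by −0.99 ± 0.13, and Stip1, the adaptor between Hsp70 and Hsp90, by −0.73 ± 0.10 (limma adjusted p = 0.000694, 0.000924 and 0.00127). On SSD 3 of 17 were lower in Klrk1-/- mice, where 1.68% of all genes were (Hspa4l, Dnaja1 and Chordc1, log2 −0.64, −0.43 and −0.40), and 0 to 3 passed with single mice left out (0 without SSD-fed Klrk1-/- replicate 1 or 2). With SSD in WT mice 11 fell, among them Bag3 (−0.70) and Fkbp4 (−0.66), and 1 rose, where 17.6% of all genes fell and 17.3% rose. In Klrk1-/- mice 2 fell, among them Dnajb2 (−0.29), and 1 rose, Ubb (0.51), where 16% fell and 13.4% rose.

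Hsf1, which encodes the transcription factor, did not differ beyond the spread in any comparison. Its normalized counts were 515 to 640.0 and 507 to 647 in NCD-fed and SSD-fed WT mice and 561 to 702 and 582 to 649 in Klrk1-/- mice, with log2 differences between 0.0054 and 0.09. Of 4 genes tested, 3 heat shock factors and the factor-binding Hsbp1, Hsf2 alone passed, and only with SSD in WT mice (log2 0.36 ± 0.13, limma adjusted p = 0.0478). That call was lost without any of 8 of the 9 mice, and in Klrk1-/- mice 0 to 1 gene of the list passed with single mice left out.

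Other chaperone systems were counted in the same way between genotypes on NCD, where 6.66% of all genes were lower and 6.41% higher. Of 15 Hsp70 and Hsp90 co-chaperones 1 was higher in NCD-fed Klrk1-/- mice (Dnajc7, log2 0.43 ± 0.10) and none lower, of 8 subunits of the cytosolic chaperonin TRiC 2 were lower (Cct5 and Cct3, log2 −0.42 and −0.40), of 6 prefoldin subunits none passed, and of 12 mitochondrial chaperones and proteases 1 was higher (Grpel2, log2 0.78 ± 0.11). With single mice left out, 0 to 3 co-chaperones, 0 to 3 TRiC subunits, 0 to 2 prefoldin subunits and 1 to 3 mitochondrial genes passed on NCD. On SSD none of these 4 lists held a gene that differed between genotypes. Of 16 chaperones of the endoplasmic reticulum, 13 were lower in Klrk1-/- mice on NCD and 3 on SSD (6.66% and 1.68% of all genes), the latter ranging from 0 to 7 with single mice left out (7 without SSD-fed WT replicate 1) and the former from 6 to 13. With SSD 14 of them fell in WT and 11 in Klrk1-/- mice (17.6% and 16% of all genes), and with single mice left out 14 to 15 passed in WT and 5 to 13 in Klrk1-/- mice (5 without SSD-fed replicate 3). Hspa5, the Hsp70 of the endoplasmic reticulum known as BiP, had normalized counts of 42581 to 77003 in NCD-fed WT mice, 12618 to 27974 in NCD-fed Klrk1-/-, 16422 to 25532 in SSD-fed WT and 10514 to 13447 in SSD-fed Klrk1-/- mice. Its log2 difference between genotypes was −1.31 ± 0.23 on NCD (limma adjusted p = 0.00486) and −0.81 ± 0.15 on SSD (limma adjusted p = 0.0257).

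**Figure D4:**
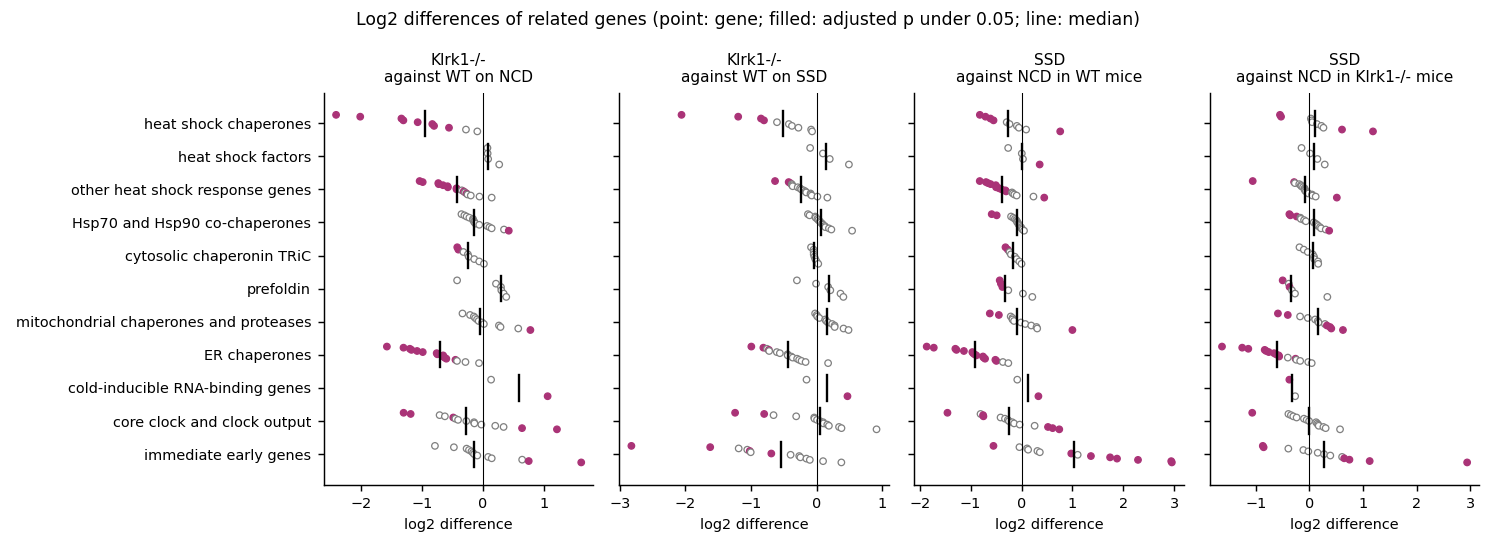
Log2 differences of single genes (points, filled where the limma adjusted p was under 0.05) in the chaperones and 10 related lists (rows) for 4 comparisons (panels), with the median of each list as a line. Between genotypes on NCD the medians of the heat shock chaperones (−0.95), the other heat shock response genes (−0.43) and the chaperones of the endoplasmic reticulum (−0.70) lie farthest left of 0, those of clock genes (−0.27), TRiC (−0.24), immediate early genes (−0.14), co-chaperones (−0.14) and mitochondrial chaperones (−0.041) nearer to it, and those of the heat shock factor list (0.08), prefoldin (0.30) and the cold-inducible genes (0.60) right of it.

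Cirbp, a cold-inducible RNA-binding protein whose transcript is known to fall with warmth, moved the other way. Its normalized counts were 226 to 288 in NCD-fed WT, 470 to 643 in NCD-fed Klrk1-/-, 307 to 362 in SSD-fed WT and 414 to 503 in SSD-fed Klrk1-/- mice, so no group of one genotype reached the other. It was higher in Klrk1-/- mice on NCD (log2 1.07 ± 0.13, limma adjusted p = 0.000455) and on SSD (log2 0.47 ± 0.10, limma adjusted p = 0.0346), the latter a call lost without any of 6 of the 8 mice. Rbm3, the other cold-inducible gene, did not pass between genotypes (log2 0.14 ± 0.11 on NCD and −0.16 ± 0.14 on SSD). Of 15 core clock and clock output genes 3 were lower and 2 higher in NCD-fed Klrk1-/- mice, where 6.66% of all genes were lower and 6.41% higher. Per2, a core clock gene, had 560 to 1009 normalized counts in NCD-fed WT and 323 to 406 in NCD-fed Klrk1-/- mice (log2 −1.19 ± 0.17, limma adjusted p = 0.00117), and Nr1d1, a clock repressor, was higher by 1.22 ± 0.26 (limma adjusted p = 0.0113). On SSD, where 1.68% of all genes were lower, 2 of the 15 were lower in Klrk1-/- mice, Per1 (log2 −1.24 ± 0.20) and Per2 (log2 −0.80 ± 0.18), and 0 to 3 passed with single mice left out (0 without SSD-fed Klrk1-/- replicate 1 or 2). Of 13 immediate early genes tested on NCD, Egr1 and Ier2 were higher in Klrk1-/- mice (log2 1.62 ± 0.37 and 0.75 ± 0.15; 6.41% of all genes), and of 14 tested on SSD 4 were lower (1.68% of all genes), with Atf3 (−2.82 ± 0.35), Fos (−1.62 ± 0.28) and Jun (−1.02 ± 0.23) changed most. The count on SSD ran from 1 to 6 with single mice left out (6 without SSD-fed WT replicate 1). The part of the clock, of body temperature or of handling in the chaperone differences was not tested.

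Within groups the chaperones did not vary as 1 block. As deviations from group means over 16 mice, the correlation between 2 genes had a median of 0.27 over the 15 pairs of inducible genes, 0.26 over the 6 constitutive pairs and 0.31 over the 24 mixed pairs, and was highest for Hsp90aa1 with Hsph1 (r = 0.80). Mice share their library and depth across genes, so these values are descriptions. The genes most alike to the mean deviation of the 6 inducible members, among 10939 genes whose normalized count averaged 50 or more, were Polr2h (r = 0.82, rho = 0.75), Sirt1 (0.82, 0.75), Errfi1 (0.81, 0.71), Elp5 (0.81, 0.75) and Alg1 (0.81, 0.68). These are the highest of 10939 correlations over 16 mice, and how high the top values run by chance was not tested. The mouse that deviated most from its group was the SSD-fed Klrk1-/- mouse that held the highest Hspa1a, Hspa1b, Hspa8, Hspb1, Dnajb1 and Hspe1 of its group, with a mean deviation of the inducible members of 0.33 on the log2 scale.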

How the data were processed

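Gene expression was measured in 1 library of whole liver per mouse. Per the study's methods and the labels, the authors checked reads with FastQC, aligned them with STAR to GRCm39, counted them per gene with FeatureCounts and deposited normalized counts, that is counts divided by size factors (a signal without length correction), with DESeq2 named among the tools. How the factors were computed, how reads matching several places were treated and whether strand was used are not given in the sources used here. The methods name a total RNA library kit and the labels an mRNA kit. The deposited table also holds the GC fraction of each gene, which was not used. The values of every library were whole multiples of the value of 1 read (100% of values within 0.01 of a read), which gave back the reads and the depth. Of 25719 genes, 6948 had 0 reads in all libraries and 22 gene names were shared by more than 1 gene, none of them a member. No column with a value per sample was left out.

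Differences were fitted by limma 3.58.1 (R 4.3.3), after adding 1 to each normalized count and taking log2, with a variance trend, on the groups of each comparison, over all genes with a mean of at least 10 there. Calls were made at a Benjamini-Hochberg adjusted p of 0.05 over all genes tested, with no fold limit, and the interaction was fitted over all 4 groups. A fold is a ratio of mean normalized counts, and log2 differences understate changes of low genes. Ratios within a mouse were compared by exact two-sided permutation tests, where p is the smaller one-sided share doubled, adjusted over 8 tests. The labels make each library a separate mouse. No 2 libraries of a group agreed within sampling noise, and SSD-fed WT replicate 1 and NCD-fed Klrk1-/- replicate 3 stood apart from their groups. Counting error only limits values at low reads.

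The members, the inducible and constitutive sets and the related lists were chosen with earlier results of these data known. The genes named are all members and, of each related list, Hsf1, both cold-inducible genes and at most the 3 genes per comparison that passed with the largest differences (1 such gene is not reported here), and the likeness ranking names the 5 highest correlations. The scan of promoters, and of transcript windows for exact copies elsewhere in GRCm39, was added after the data were seen. Alternatives were other pseudocounts, minimum means, scalings and variance settings, count models of the whole reads (edgeR 4.0.16, DESeq2 1.42.0), blocking on replicate number, a joint fit of the 4 groups, fold limits and leaving out each mouse. The fits were also run on simulated counts in which every gene had the same setting for the spread between mice and no library stood apart. These simulations therefore do not check the fits under the spread of the real libraries.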

Additional observations from a re-analysis of the deposited data

Results flagged for a closer look

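Hspa1b in SSD-fed WT mice was flagged because 1 mouse, replicate 5, stood apart from the other 4: it had 863 normalized counts (9.75 on the log2 scale) where the others had 653 to 707. Its gap to the nearest mouse was 0.714 of the range of the group, just over the 95% critical value of Dixon's test for 5 samples. Of 36 groups of values examined this was the single one so far apart, where chance gives about 1 in 20.

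The effect of SSD on Hspa1b was flagged because it differed between genotypes, by 1.22 on the log2 scale: the gene fell in WT and rose in Klrk1-/- mice. Over the alternatives tried the adjusted p of this difference (limma, edgeR or DESeq2) ranged from 0.000451 to 0.0905.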

How the results depend on the processing

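The 8 genes called between genotypes on NCD were the firmest result: 8 to 9 members passed with any mouse left out, and 5 with a fold limit of 2. On SSD 2 to 5 passed with a mouse left out and 2 with a fold limit of 2. For the diet, 5 to 7 passed in WT and 2 to 4 in Klrk1-/- mice with a mouse left out. A fold limit of 2 left 0 in WT and 1 in Klrk1-/- mice, and in the latter a fold limit of 1.5 left 2 and a fit with no variance trend left 2. The interaction passed for 0 to 1 member with a mouse left out, for 0 with no variance trend, for 0 with the replicate block and for 2 with DESeq2 on recovered reads.

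With the replicate number as a block, 9 members passed between genotypes on NCD, 4 on SSD, 5 for the diet in WT and 3 in Klrk1-/- mice. The block ended the calls of Hspa8 on SSD (limma adjusted p = 0.0942), of Hspa1b for the diet in Klrk1-/- mice (0.0619) and of its interaction (0.0905), and added Hsph1 on SSD (0.0418) and Hspd1 on NCD (0.0389). Over all genes, those called between genotypes on SSD numbered 160 higher and 221 lower, 535 and 685 with DESeq2, 420 and 537 with all 4 groups in 1 model, 263 and 447 with the block, 88 and 376 with the same total, 68 and 108 with no variance trend, 15 and 30 without SSD-fed Klrk1-/- replicate 1, and 292 and 425 without SSD-fed WT replicate 1. On NCD they numbered 823 and 856, 404 and 361 with no variance trend, and 352 and 365 without NCD-fed Klrk1-/- replicate 3. The diet called 1423 higher and 1551 lower in WT mice with the block. In Klrk1-/- mice it called 1043 and 1354 without SSD-fed Klrk1-/- replicate 1, against 1723 and 2067. The interaction called 42 and 73, against 186 and 274 with DESeq2 and 11 and 31 with the block. Without SSD-fed Klrk1-/- replicate 1 it called 13 and 26, and without replicate 3 of that group 11 and 26. The numbers do not pair the mice: over 20 pairs with the same number the correlation of deviations ran from −0.32 to 0.25 with a median of −0.027, 4 were over 0.1, and 3 libraries were most like their own number.

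Differences that changed sign were small and not called in the main analysis. With the same total in every sample, the diet difference in WT mice was 0.25 for Dnajb1, 0.11 for Hsp90aa1, 0.055 for Hsp90ab1 and 0.29 for Hspd1, and the interaction of Hspe1 was −0.069. With quantile normalization it was 0.12 for Hsp90ab1, 0.24 for Hspd1 and −0.19 for Hspa1a in WT mice and −0.0018 for Hspa1a in Klrk1-/- mice, and the interaction was 0.17 for Hspa1a, −0.084 for Hspa8 and −0.072 for Hspe1. The interaction of Hspa1a was 0.057 with edgeR, 0.048 with DESeq2 and 0.0031 with the replicate block. With that block the diet difference in Klrk1-/- mice was −0.0045 for Dnajb1 and 0.024 for the log2 ratio of Hsp90aa1 over Hsp90ab1. Leaving out single mice gave, for the diet in WT mice, −0.074 to 0.20 for Hspa1a and −0.12 to 0.017 for Hspd1. In Klrk1-/- mice it gave −0.28 to 0.34 for Hspa1a, −0.090 to 0.19 for Hsph1, −0.10 to 0.12 for Dnajb1 and −0.14 to 0.074 for the log2 ratio of Hsp90aa1 over Hsp90ab1. Between genotypes it gave −0.16 to 0.019 for Hspd1 and −0.17 to 0.0080 for Hspe1 on SSD, and −0.18 to 0.034 for Hspe1 on NCD. For the interaction it gave −0.37 to 0.25 for Hspa1a, −0.0096 to 0.24 for Dnajb1 and −0.11 to 0.11 for Hspe1. The cause of these changes was not tested. Hspa1a rests on 9 to 33 reads in Klrk1-/- mice, which limits its precision.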
